A study of Mus musculus with 20 samples.

Results

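The analysis asked whether drinking tea changed gene expression in white fat by the same amount in high-fat-fed and in chow-fed mice. All 20 libraries of the series entered it, 5 mice in each of 4 groups. High-fat tea mice received a high-fat diet and drank Tibetan tea, a fermented dark tea given as a water extract. High-fat water mice received the same diet and plain water. Chow tea mice received chow and the tea extract, and chow water mice received chow and water. Feeding lasted 10 weeks with food and drink freely available, and the mice were assigned to the groups at random. The sources used here do not give strain, sex, age, fat depot or hour of collection. The measure is the interaction on the log2 scale, which is the tea change (tea over water) in high-fat feeding minus the tea change in chow feeding. It is positive where tea raised a gene more, or lowered it less, under the high-fat diet. The test covered 21306 of 56805 annotated genes, those that passed a filter on low counts.

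White fat stores triglyceride in adipocytes, and its stroma holds macrophages, progenitors, vessels and nerves. During high-fat feeding fat cells enlarge, leptin output rises and macrophages gather around lipid from dying adipocytes. Fatty acids leave storage as free acids. Once activated to acyl-CoA esters, they are oxidised, elongated, desaturated by stearoyl-CoA desaturases or freed again by acyl-CoA thioesterases. A circadian clock runs in adipocytes, in which the nuclear repressors Nr1d1 and Nr1d2 lower the transcription of core activators, and output factors such as Dbp carry the rhythm to other genes, so that levels of these genes vary over the day.

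Libraries held 53047057 to 93314761 reads in genes. Adipoq, the adipocyte hormone adiponectin, ranged from 844 to 4157 CPM (counts divided by the scaled library size, as edgeR computes them). The list of adipocyte markers was low in 2 libraries. Its median deviation from the mean of all libraries, on the log2 scale, was -1.68 in high-fat tea replicate 4, with the other high-fat tea mice at -0.19 to 0.27, and -1.29 in chow water replicate 1, with the other chow water mice at 0.12 to 0.61. Some libraries also carried transcripts of other organs. A list of pancreas acinus genes took 42.4% of the reads in chow water replicate 1, a kidney list 2.99% in high-fat tea replicate 4, and a list of epididymis, testis and seminal vesicle genes 3.92% in high-fat water replicate 4. Skeletal muscle genes took 4.33% in high-fat tea replicate 1 and 3.97% in high-fat water replicate 5. Of the 14 genes called below, 0 stand on a list of other-organ genes. The counts of calls are given with and without the first 3 of these libraries, named below by their pancreas, kidney or epididymis transcripts. They are also given without 9 libraries that carried such transcripts. Other libraries were not free of them. The kidney list had a median deviation of 2.95 in chow tea replicate 3, and the adrenal cortex list 2.90 in high-fat tea replicate 2.

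In the interaction, 14 genes passed an adjusted p below 0.05 in the edgeR quasi-likelihood test with Benjamini-Hochberg adjustment over all genes, which is 0.0657% of those tested. They divided into 7 genes with a positive interaction (among them Rassf6, 4732463B04Rik, Eif4ebp3, Acot4, Sqor and Ivns1abp) and 7 with a negative one (Scd2, Septin9, Dbp, Ano8, Vac14, Krt79 and Rnase2a), 0.0329% of the genes tested in each direction. Their interactions measured 0.95 to 3.95 in size, while the median size over all genes was 0.37 with a median standard error of 0.44. In 12 of the 14 the tea change in high-fat feeding was the larger in size, and in Dbp and Krt79 the change in chow was larger. The tea changes had opposite signs in the 2 diets for 10 of the 14 and the same sign for 4. Some of these changes lay near 0, such as -0.03 for Dbp in high-fat feeding and 0.07 for Ano8 in chow. Among the opposite pairs, Scd2, Krt79 and Ivns1abp had an unadjusted edgeR p below 0.05 in both diets. The genes were called for a difference between these changes, so nothing is read from either count.

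The tea changes that make up the interaction were unequal in number between the diets. Tea changed 928 genes in high-fat feeding (4.36% of those tested), 439 higher (2.06%) and 489 lower (2.30%), and 5 genes in chow (0.0235%), named here after their values were seen as Vmn2r1, Dbp, Fbxl9, Nr1d1 and Hnrnpc. Those counts do not themselves test a difference, which is what the interaction does gene by gene. Both comparisons rest on separate mice, and across 13687 genes with a mean of at least 1 on the log2 CPM scale their log2 tea changes gave Pearson's r of -0.28 and Spearman's rho of 0.07. This is a description across genes that share libraries, and genes are not independent replicates. Other-organ genes had some of the largest tea changes. Their list medians, high-fat then chow, were 8.47 and -1.64 for kidney and 2.17 and -6.12 for intestine. They were -0.34 and -13.07 for pancreas acinus, of the same sign. The part of such genes in the 2 coefficients was not tested. Unadjusted p-values below 0.05 were found for 3196 genes in the interaction (15.0%), of which 1932 were positive (9.07%) and 1264 negative (5.93%). The positive ones include all 22 tested kidney genes, all 19 tested pancreas acinus genes and 14 of 15 tested intestine genes.

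**Figure D1:**
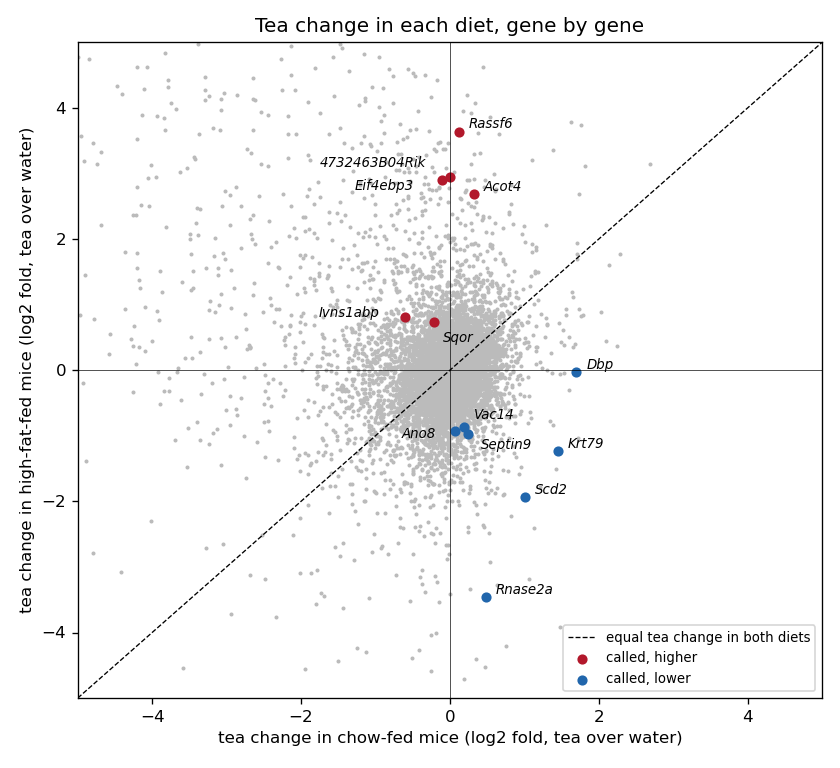
Tea change (log2 fold, tea over water) in high-fat-fed mice on the vertical axis against that in chow-fed mice on the horizontal axis, with 1 grey point for each of the genes just described. The dashed line marks equal changes, 13327 genes are drawn and 360 lie outside the axes of 5 log2 units. Coloured points stand for 13 of the 14 called genes, of which the 6 with a positive interaction (red) lie above the line and the 7 with a negative one (blue) below it.

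The lowest p belonged to Scd2, a stearoyl-CoA desaturase that introduces a double bond into saturated fatty acids. Per-mouse values run from replicate 1 to 5 here and below. Scd2 stood at 81.3, 125, 93.4, 61.6 and 62.6 CPM in high-fat tea mice, against 311, 351, 227, 447 and 286 CPM in high-fat water mice. In chow it stood at 97.1, 80.6, 97.9, 86.7 and 114 CPM in tea mice, against 37.3, 54.1, 25.1, 66.2 and 53.7 CPM in water mice. All tea mice lay below all water mice under the high-fat diet and all tea mice lay above all water mice on chow. The tea change was -1.94 ± 0.25 (log2 ± SE, 3.83-fold lower, adjusted p = 9.28e-04) in high-fat feeding and 1.01 ± 0.25 (2.02-fold higher, adjusted p = 0.187) in chow. The interaction was -2.95 ± 0.35 with an adjusted p of 0.00238.

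The other stearoyl-CoA desaturases did not pass the test. Scd1, the main form of adipocytes, averaged 35535 ± 17039 CPM in high-fat tea mice and 38578 ± 11090.5 CPM in high-fat water mice, and 75679.5 ± 11413 CPM in chow tea mice and 62238 ± 28325 CPM in chow water mice (SD, n = 5 each). Its interaction was -0.40, with a 95% interval from -2.12 to 1.32 and an adjusted p of 0.873. Scd3, named after its values were seen, had an interaction of -1.65 ± 0.80 (adjusted p = 0.342). The copies are close in sequence and could exchange reads, so the value of each is less certain. Of 18 tested desaturases and elongases, Scd2 alone was called in the edgeR fit.

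Acot4, a thioesterase of peroxisomes that releases free acids from acyl-CoA, moved the other way. High-fat tea mice had 20.6, 20.6, 50.5, 59.5 and 20.2 CPM, against 4.96, 5.59, 6.32, 4.23 and 5.54 CPM in high-fat water mice. Chow tea mice had 65.1, 58.3, 63.6, 53.8 and 82.2 CPM, against 36.7, 55.9, 58.5, 40.2 and 66.9 CPM in chow water mice. High-fat water was the group apart, with every mouse below every other mouse of the study. Tea raised Acot4 by 2.69 ± 0.30 in high-fat feeding (6.43-fold, adjusted p = 4.28e-04), and the change in chow was 0.32 ± 0.28 (adjusted p = 0.698). The interaction was 2.36 ± 0.40 (adjusted p = 0.0291).

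The antisense neighbour 4732463B04Rik was also called (named after its values were seen, since its clone name keeps it outside the naming rule). On chromosome 12 of GRCm39, Acot4 spans 84085153 to 84095375 on the plus strand and 4732463B04Rik 84086243 to 84100581 on the minus strand. Their exons share bases, 9.21% of those of Acot4 and 21.0% of those of 4732463B04Rik, and the counting used no strand option, so reads of one cannot be told apart from reads of the other there. 4732463B04Rik had 2.16, 2.77, 2.97, 5.12 and 2.50 CPM in high-fat tea mice, against 0.392, 0.387, 0.719, 0.210 and 0.320 CPM in high-fat water mice. It ranged from 4.48 to 8.33 CPM in chow tea mice and from 4.01 to 7.88 CPM in chow water mice. The pattern of groups is that of Acot4, with an interaction of 2.93 ± 0.45 (adjusted p = 0.0213). Acot3 and Acot1, thioesterases of the same chromosomal cluster named after their values were seen, had larger and less certain estimates of 5.54 ± 1.54 (adjusted p = 0.126) and 4.33 ± 1.31 (adjusted p = 0.134). High-fat tea replicate 4, the high-fat tea library with kidney transcripts, had 15.3 CPM of Acot3 and 103 CPM of Acot1. The other high-fat tea mice had 0.112 to 1.65 CPM of Acot3 and 1.23 to 8.49 CPM of Acot1. Without the 3 libraries that carried pancreas, kidney or epididymis transcripts the estimates were 3.56 for Acot3 (adjusted p = 0.189) and 1.81 for Acot1 (adjusted p = 0.379).

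The promoter of Acot4 is shown because it is the called lipid gene for which the RefSeq promoter table of GRCm38.p6 has an entry. The window holds 250 bases before and 50 after the start site (chr12:84038129-84038428, plus strand). Capitals mark a CCAAT box 85 bases before the start site, an E-box (CACGTG) 66 bases before it and a nuclear receptor half-site (AGGTCA, here on the other strand) 13 bases before it.
Acot4 promoter: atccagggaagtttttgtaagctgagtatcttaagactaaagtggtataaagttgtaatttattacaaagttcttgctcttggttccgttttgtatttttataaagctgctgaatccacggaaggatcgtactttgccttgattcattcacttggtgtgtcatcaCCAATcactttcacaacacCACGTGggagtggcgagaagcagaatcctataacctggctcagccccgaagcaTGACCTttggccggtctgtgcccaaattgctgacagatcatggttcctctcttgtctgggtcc
On either strand, the E-box occurs in 7.15% of 32851 promoters of this length, the half-site in 16.3% and the CCAAT box in 37.4%. These are matches of letters and not measured binding sites.

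Sqor, the mitochondrial enzyme that oxidises hydrogen sulfide, had the smallest interaction of the 14. Its levels were 137, 140.1, 147, 142 and 124 CPM in high-fat tea mice, against 76.7, 86.0, 86.4, 70.1 and 95.5 CPM in high-fat water mice. Chow tea mice ranged from 126 to 147 CPM and chow water mice from 112 to 203 CPM. The high-fat groups did not overlap and the chow groups did. Its interaction was 0.95 ± 0.17 (adjusted p = 0.0444), from a tea change of 0.74 in high-fat feeding and -0.21 in chow.

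Dbp, a transcription factor driven by the clock, was the called gene whose tea change lay in chow. It stood at 51.2, 84.3, 65.9, 83.9 and 49.3 CPM in high-fat tea mice, against 48.4, 63.2, 69.3, 79.5 and 81.2 CPM in high-fat water mice, and these groups overlapped. Chow tea mice had 10.4, 10.3, 7.15, 10.0 and 7.23 CPM, against 2.18, 3.12, 2.95, 3.64 and 1.97 CPM in chow water mice, with no overlap. The tea change was -0.03 ± 0.20 in high-fat feeding (adjusted p = 0.957) and 1.70 ± 0.21 in chow (3.25-fold higher, adjusted p = 0.00352), and the interaction was -1.73 ± 0.29 (adjusted p = 0.0291). Both high-fat groups lay above both chow groups, so the chow tea change occurred at the lower end of the Dbp range. Sphk2 lies on the other strand across 18.0% of the exonic bases of Dbp, where reads cannot be assigned.

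The Dbp promoter is shown as that of the called gene that changed with tea in chow (RefSeq, GRCm38.p6, chr7:45704997-45705296, plus strand, the same window length). Capitals mark the CCAAT box on the reverse strand, 222 bases before and 27 bases after the start site.
Dbp promoter: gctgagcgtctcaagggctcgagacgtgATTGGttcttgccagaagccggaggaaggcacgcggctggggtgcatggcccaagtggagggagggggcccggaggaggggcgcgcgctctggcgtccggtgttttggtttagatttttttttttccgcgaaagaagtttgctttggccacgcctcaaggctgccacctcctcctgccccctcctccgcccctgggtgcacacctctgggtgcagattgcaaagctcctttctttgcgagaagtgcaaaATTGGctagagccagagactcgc
The letters of the E-box, the AGGTCA half-site and the D-box (TTATGNAA, found in 3.38% of promoters) are not in this window, which says nothing about sites elsewhere.

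The repressors Nr1d1 and Nr1d2 did not pass the interaction test. Nr1d1 had 188, 284, 297, 147 and 174 CPM in high-fat tea mice, against 154, 178, 178, 147 and 199.6 CPM in high-fat water mice. In chow, 150.3, 137, 177, 117 and 189.9 CPM were measured in tea mice, against 40.0, 54.3, 67.3, 33.9 and 49.5 CPM in water mice. The chow groups stood apart and the high-fat groups overlapped, as for Dbp. The tea change of Nr1d1 was 1.65 ± 0.21 in chow (3.14-fold higher, adjusted p = 0.00374) and 0.35 ± 0.21 in high-fat feeding (adjusted p = 0.326). Its interaction was -1.31 ± 0.29 (adjusted p = 0.107). DESeq2 called this interaction (adjusted p = 0.00407). Nr1d2, named after its values were seen, had an interaction of -0.78 ± 0.21 (adjusted p = 0.120), with a tea change of 0.07 in high-fat feeding and 0.85 in chow (adjusted p = 0.0579).

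The median interaction was -0.08 over 20 tested core clock genes and 0.19 over 27 tested clock output genes, Dbp included, against a median of 0.05 over all genes tested. Both signs depended on single libraries, with medians from -0.13 to 0.02 for core clock genes and from -0.13 to 0.50 for clock output genes when each library was left out (0.02 without high-fat tea replicate 4, and -0.13 for clock output without high-fat tea replicate 1). Npas2, a partner of the core activator Arntl, lay far below the chow level in both high-fat groups, which averaged 1.78 ± 0.469 CPM with tea and 1.07 ± 0.586 CPM with water, against 26.5 ± 11.3 CPM in chow tea mice and 26.9 ± 4.43 CPM in chow water mice. Its interaction was 0.75, with a 95% interval from -0.20 to 1.70 (adjusted p = 0.464). The hour of collection is not given for any group. Its part in the values of Dbp, Nr1d1, Nr1d2 and Npas2 was not tested.

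The remaining called genes act in signalling, membranes, the cytoskeleton and translation. Rassf6, a scaffold protein of the Ras association domain family linked to the Hippo pathway and cell death, had the largest positive interaction of the 14. It stood at 7.82, 18.2, 14.2, 11.5 and 3.16 CPM in high-fat tea mice, against 0.490, 1.05, 1.19, 0.926 and 0.759 CPM in high-fat water mice. It ranged from 11.2 to 19.8 CPM in chow tea mice and from 9.85 to 16.9 CPM in chow water mice. The high-fat water mice were the group apart again, and the tea change there was 3.64 ± 0.38 (12.4-fold higher, adjusted p = 3.50e-04), against 0.12 ± 0.34 in chow. The interaction was 3.52 ± 0.50 (adjusted p = 0.00946).

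Septin9, a GTP-binding cytoskeletal filament protein, had 76.1, 73.1, 69.3, 63.2 and 87.5 CPM in high-fat tea mice, against 188, 154, 132, 129 and 123 CPM in high-fat water mice. Its values ranged from 63.5 to 76.7 CPM in chow tea mice and from 55.4 to 67.8 CPM in chow water mice. High-fat water mice were above all others, and the other 3 groups overlapped. The interaction was -1.21 ± 0.16 (adjusted p = 0.00616), from a tea change of -0.97 ± 0.11 in high-fat feeding (1.96-fold lower) and 0.24 ± 0.11 in chow.

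Vac14, the scaffold of the complex that makes the endosomal lipid phosphatidylinositol 3,5-bisphosphate, and Ano8, an anoctamin that joins endoplasmic reticulum to the plasma membrane, also stood highest in high-fat water mice. Vac14 had 30.1, 23.7, 28.2, 27.1 and 33.1 CPM in high-fat tea mice, against 59.7, 61.5, 46.4, 41.3 and 51.8 CPM in high-fat water mice. Ano8 had 13.8, 13.3, 11.0, 10.4 and 13.3 CPM in high-fat tea mice, against 26.5, 23.0, 23.8, 20.5 and 24.0 CPM in high-fat water mice. The high-fat groups did not overlap in either gene, and in both the chow tea and chow water mice overlapped. Their interactions were -1.06 ± 0.18 for Vac14 and -0.99 ± 0.17 for Ano8 (adjusted p = 0.0291 each).

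Krt79, a type II keratin, combined a decrease and an increase. High-fat tea mice had 7.30, 5.15, 5.91, 3.03 and 11.7 CPM, against 16.5, 20.4, 16.2, 10.6 and 14.2 CPM in high-fat water mice, an overlap by 1 tea mouse. Chow tea mice had 12.5, 10.4, 18.2, 11.4 and 14.6 CPM, against 2.96, 4.02, 5.06, 3.74 and 8.75 CPM in chow water mice, with no overlap. The tea change was -1.23 ± 0.32 in high-fat feeding (adjusted p = 0.0398) and 1.45 ± 0.33 in chow (adjusted p = 0.187). The interaction was -2.69 ± 0.46 (adjusted p = 0.0291).

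Ivns1abp, an actin-associated protein first known for binding an influenza protein, was measured at 321, 546, 390.2, 521 and 469 CPM in high-fat tea mice, against 307, 251, 252, 201 and 273 CPM in high-fat water mice. Chow tea mice had 230.0, 375, 267, 413 and 291 CPM, against 519, 535, 453, 509 and 369.8 CPM in chow water mice. The order of tea and water was turned round between the diets, though the chow groups overlapped. The tea change was 0.81 ± 0.18 in high-fat feeding (adjusted p = 0.0205) and -0.60 ± 0.18 in chow (adjusted p = 0.205), with an interaction of 1.41 ± 0.25 (adjusted p = 0.0444). Without the 3 libraries with pancreas, kidney or epididymis transcripts, its adjusted p was 0.0713.

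Eif4ebp3 and Rnase2a were called at low levels and lie outside the naming rule, so they are named after their values were seen. Eif4ebp3, a repressor of cap-dependent translation, averaged 2.33 ± 0.535 CPM in high-fat tea mice and 0.310 ± 0.104 CPM in high-fat water mice, and 2.50 ± 1.06 CPM in chow tea mice and 2.70 ± 0.919 CPM in chow water mice (SD, n = 5 each). Its interaction was 3.02 ± 0.50 (adjusted p = 0.0291), and 67.3% of its exonic bases also belong to Maskbp3 on the same strand, so its reads cannot be assigned with certainty. Rnase2a, of the eosinophil-associated ribonuclease family of close copies, averaged 0.145 ± 0.0915 CPM in high-fat tea mice and 1.62 ± 0.476 CPM in high-fat water mice, against 0.174 ± 0.106 CPM in chow tea mice and 0.125 ± 0.0439 CPM in chow water mice. It had the largest interaction in size of the 14, -3.95 ± 0.69 (adjusted p = 0.0348), with an adjusted p of 0.0708 without the 3 libraries named above. Just outside the threshold lay Emc9 (-1.05) and Maged1 (-0.76), both with an adjusted p of 0.0583.

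**Figure D2:**
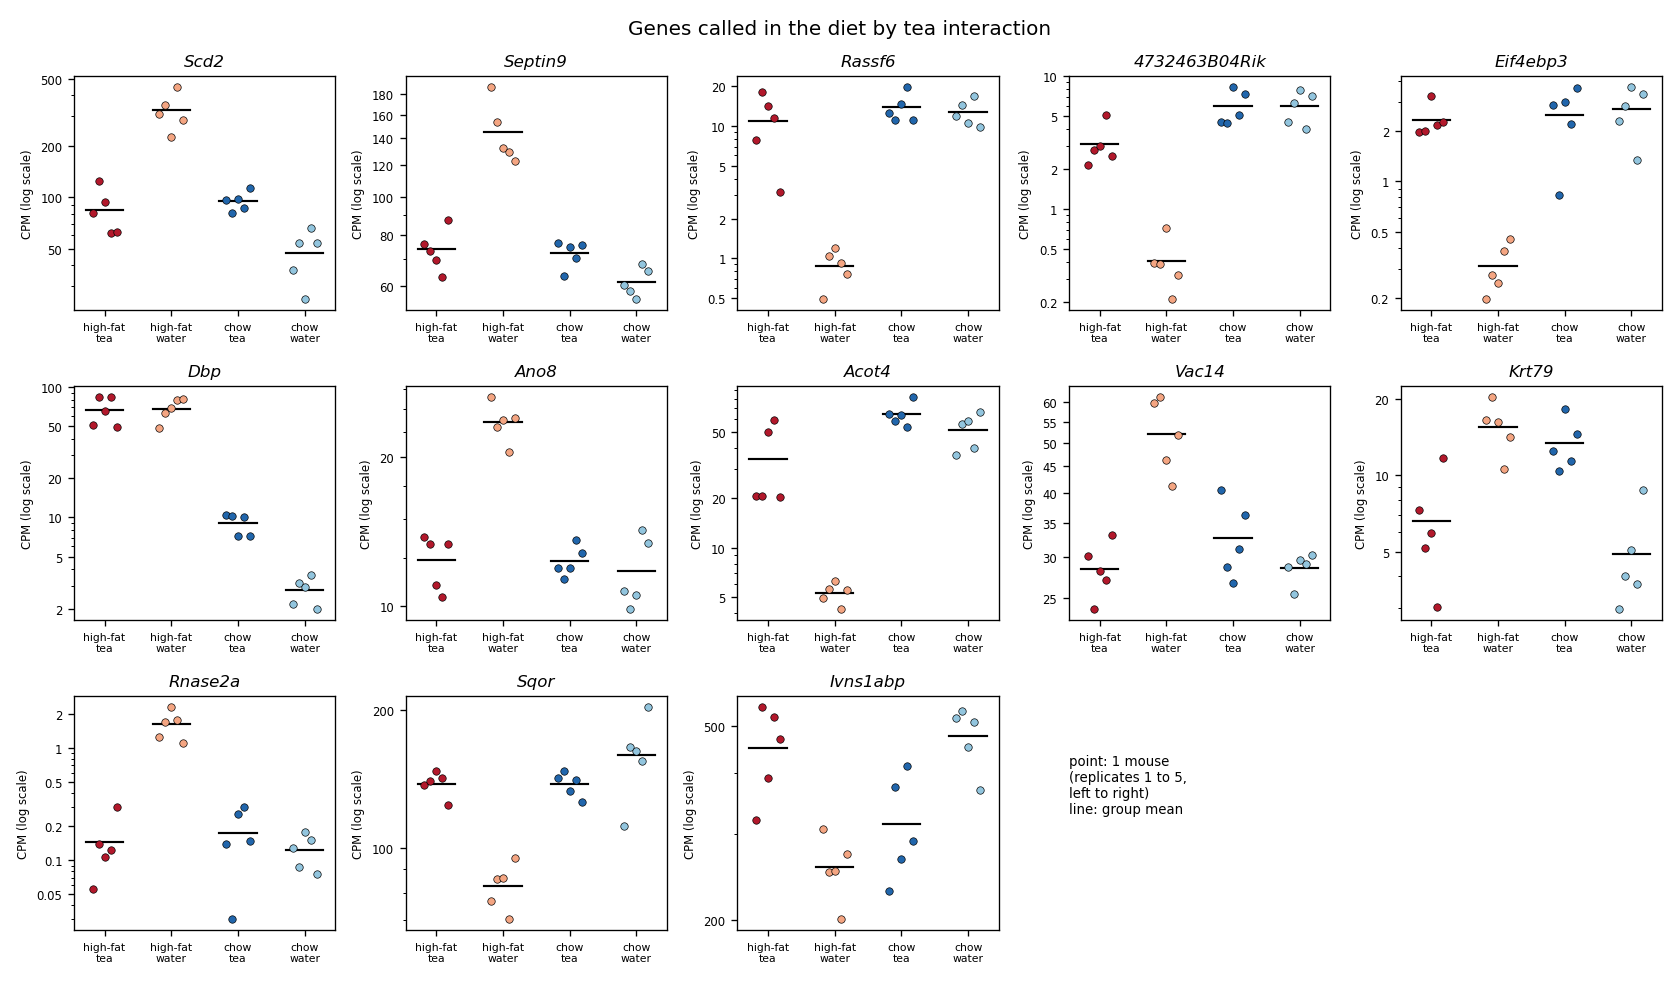
Expression of 13 of the 14 genes called in the interaction, in CPM on a log axis, for each mouse (points) with the group mean (line), in the order high-fat tea, high-fat water, chow tea and chow water. High-fat tea and high-fat water mice overlap in Dbp and Krt79 and in no other gene shown, and chow tea and chow water mice do not overlap in Scd2, Dbp and Krt79.

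Libraries of high-fat tea and high-fat water mice did not overlap in 12 of the 14 genes, against 5.55% of all genes tested. Libraries of chow tea and chow water mice did not overlap in 3 of the 14, against 2.56% of all genes. The calls were made from these same libraries, so nothing is read from those counts. Among water-drinking mice, the diet change (high-fat over chow) of the same genes was 2.78 for Scd2, -3.28 for Acot4, -3.85 for Rassf6, 1.24 for Septin9 and 4.62 for Dbp. With tea the diet change was -0.17 for Scd2, -0.91 for Acot4, -0.33 for Rassf6, 0.03 for Septin9 and 2.89 for Dbp. The 2 diet changes are made from the 4 groups that also make the interaction, and are given as values side by side.

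Of 14 genes reported whatever their result, Scd2 and Dbp were called and 12 were not. Lep, the hormone leptin, averaged 255 ± 389 CPM in high-fat tea mice and 1608 ± 867 CPM in high-fat water mice, and 7.13 ± 6.83 CPM in chow tea mice and 58.9 ± 64.3 CPM in chow water mice. Its tea change was -2.65 ± 1.07 in high-fat feeding and -3.05 ± 1.09 in chow, neither past the threshold, with an interaction of 0.39 and a 95% interval from -2.60 to 3.39. A difference of several-fold in either direction was therefore within the error for Lep, and the estimate was -1.22 without high-fat tea replicate 5. Adipoq (-0.38, 95% interval -1.48 to 0.71), Pparg, the master regulator of adipocytes (0.23, -0.75 to 1.22), and Fasn, fatty acid synthase (-0.39, -2.55 to 1.77), had intervals that include 0. Ucp1, the uncoupling protein of thermogenic fat, varied from 0.590 CPM in a chow water mouse to 869 CPM in a high-fat water mouse, and its interaction of -1.21 had an interval from -6.04 to 3.62.

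Trem2, the receptor that marks macrophages handling lipid, had 6.02, 1.95, 12.8, 3.26 and 20.3 CPM in high-fat tea mice, against 101, 41.6, 31.1, 36.6 and 24.5 CPM in high-fat water mice. Chow tea mice ranged from 2.97 to 11.5 CPM and chow water mice from 1.92 to 4.51 CPM. The high-fat groups did not overlap. Its interaction was -3.54 ± 0.80 with an adjusted p of 0.107, and without high-fat tea replicate 5 it was -4.10 with an adjusted p of 0.0305. Adgre1, the general macrophage marker F4/80, had an interaction of -1.42 ± 0.57 (adjusted p = 0.239). Col15a1, a basement membrane collagen, had an interaction of -1.99 ± 0.57 (adjusted p = 0.127), and -2.42 with an adjusted p of 0.0489 without high-fat tea replicate 5. Cyp2d22 (0.86 ± 0.31, adjusted p = 0.188) and Cyp2e1 (1.32 ± 0.57, adjusted p = 0.283), cytochromes P450 of drug and solvent metabolism, had positive estimates that did not pass. Without the 3 libraries with pancreas, kidney or epididymis transcripts Cyp2d22 was called, at 1.10 with an adjusted p of 0.0181, and Cyp2e1 was at 1.54 with an adjusted p of 0.168.

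**Figure D3:**
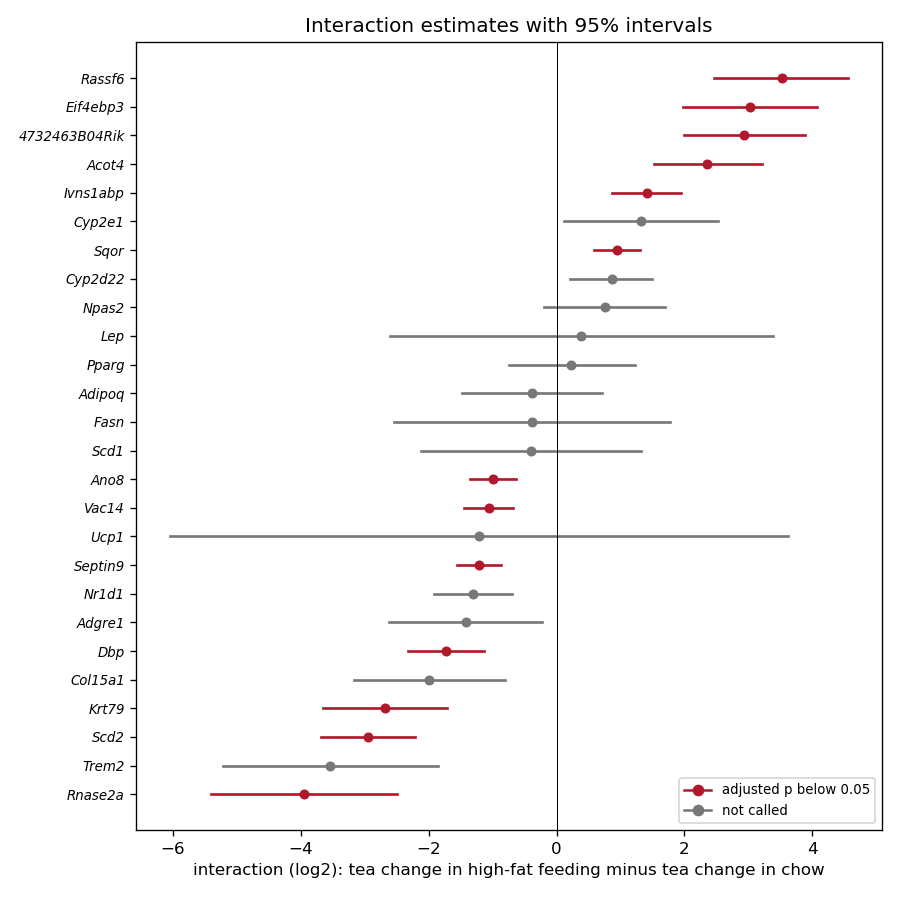
Interaction (log2, tea change in high-fat feeding minus tea change in chow) of 13 of the 14 called genes, Nr1d1 and the 12 uncalled genes reported whatever their result, as points with 95% intervals (lines). Intervals of called genes exclude 0, and those of Lep (-2.60 to 3.39) and Ucp1 (-6.04 to 3.62) are the widest.

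Gene lists were described by their counts and medians, beside a median of 0.05 over all genes tested, of which 54.1% had positive and 45.9% negative estimates. Calls by other tools are read against their own background, which is 3.61% of genes with DESeq2 (2.49% positive and 1.12% negative) and 0.0282% with limma voom (0.00939% positive and 0.0188% negative). Of 49 lists of pathways and cell types, 7 had a median interaction of at least 0.5, 5 had one of -0.5 or less and 37 lay between. At least 1 called member was found on 4 lists. The lists below, and the members named from them, were picked after their values were seen.

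Of the lists of immune genes, those of B cells and immunoglobulins (0.32), T and NK cells (0.00) and neutrophils and mast cells (-0.01) had medians above or near 0. Without the 3 libraries with pancreas, kidney or epididymis transcripts these medians were -0.08, -0.34 and 0.03. The B cell median ran from -0.06 to 0.60 when each library was left out. Negative medians were found for chemokines (-0.45), interleukins and TNF (-0.44), acute phase genes (-0.43) and resident and general macrophages (-0.38). Complement (-0.34) and Toll-like receptor genes (-0.20) were also negative, as were the 3 lists described next. Without the same 3 libraries the medians were -0.27 for chemokines, -0.24 for interleukins and TNF and -0.61 for acute phase genes. They were -0.23 for resident and general macrophages, -0.12 for complement and -0.27 for Toll-like receptor genes. The lipid-associated macrophage list had a median of -1.02 over 24 tested members, 20 of them negative (-1.28 to -0.76 when each library was left out in turn). It had 0 called members with edgeR, with 11 negative and 1 positive at an unadjusted p below 0.05, 4 negative calls with DESeq2, 0 with limma voom and 5 negative calls with edgeR without high-fat tea replicate 5. Gpnmb, a glycoprotein of lysosomes in lipid-laden macrophages, averaged 75.1 CPM in high-fat tea mice and 422 CPM in high-fat water mice, and 54.1 CPM in chow tea mice and 37.7 CPM in chow water mice (interaction -3.01 ± 0.76, adjusted p = 0.116). Ctss, the protease cathepsin S, had an interaction of -1.70 ± 0.48 (adjusted p = 0.127). Spp1, osteopontin, went the other way at 3.13 ± 1.41 (adjusted p = 0.304).

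The median deviation of this list from the mean of all libraries gives its level in each mouse. It was -0.22, -0.67, -0.13, -1.11 and 0.61 in high-fat tea mice, against 1.45, 1.02, 0.66, 0.46 and 0.41 in high-fat water mice, on the log2 scale. Chow tea mice ranged from -0.39 to -0.08 and chow water mice from -0.95 to -0.13. High-fat tea replicate 5 lay inside the range of the high-fat water mice and the other 4 high-fat tea mice below it. In bulk tissue, fewer cells of a type and less RNA per cell cannot be told apart.

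Class II antigen presentation genes had a median of -0.80 over 12 members, 10 of them negative. There were 0 edgeR calls and 0 voom calls, 8 negative members at an unadjusted p below 0.05 and 1 DESeq2 call. Cd74, the invariant chain, averaged 463 CPM in high-fat tea mice and 906 CPM in high-fat water mice, and 453 CPM in chow tea mice and 511 CPM in chow water mice (interaction -0.80 ± 0.36, adjusted p = 0.300). In Ciita, the transcription factor that switches class II genes on, it was -1.28 ± 0.43 (adjusted p = 0.162).

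Interferon-stimulated genes had a median interaction of -0.61, with 34 of 37 members negative, from a median tea change of -0.39 in high-fat feeding and 0.27 in chow. With edgeR 0 members were called in the interaction, with 17 negative at an unadjusted p below 0.05, 5 DESeq2 calls and 0 voom calls. Ifit3b averaged 5.03 CPM in high-fat tea mice and 8.83 CPM in high-fat water mice, and 6.11 CPM in chow tea mice and 2.95 CPM in chow water mice (-1.86 ± 0.50, adjusted p = 0.125). For Rsad2, the antiviral enzyme viperin, it was -1.09 ± 0.35 (adjusted p = 0.152), with a tea change of 0.13 in high-fat feeding and 1.21 in chow. In median deviation the list ranged from -0.43 to 0.08 in high-fat tea mice and from 0.16 to 0.49 in high-fat water mice, without overlap. It was variable within the chow tea group, from -0.36 to 0.67. Collagens and matrix genes had a median of -0.52 over 40 members and 0 called, with 8 negative and 4 positive at an unadjusted p below 0.05, 3 DESeq2 calls and 0 voom calls. Their median was -0.29 without the 3 libraries with pancreas, kidney or epididymis transcripts and -0.31 without chow water replicate 1 alone. The list's median deviation was lowest in high-fat tea replicate 4 (-1.29) and chow water replicate 1 (-1.08), the libraries low in adipocyte markers, whose part in this result was not tested.

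Of the lists of metabolic genes, cholesterol synthesis, uptake and efflux (-0.36), desaturases and elongases (-0.29), fatty acid and lipoprotein uptake (-0.27) and de novo lipogenesis (-0.13) had negative medians. Positive medians were found for acyl-CoA thioesterases (0.82), respiratory chain genes encoded in mitochondria (0.75) and thermogenic fat (0.59). These were 0.49, 0.75 and 0.51 without the 3 libraries with pancreas, kidney or epididymis transcripts, and 0.57, 0.59 and 0.03 with voom. The lists described next also had positive medians. Genes of the aryl hydrocarbon receptor and drug metabolism, which clear foreign compounds, had a median of 0.67 over 48 members, with 37 positive (0.54 to 0.78 when each library was left out). Calls numbered 0 with edgeR and 0 with voom, with 22 positive and 2 negative at an unadjusted p below 0.05, and 7 positive and 1 negative with DESeq2. Fmo5, a flavin monooxygenase, averaged 132 CPM in high-fat tea mice and 47.5 CPM in high-fat water mice, and 117 CPM in chow tea mice and 128 CPM in chow water mice (interaction 1.61 ± 0.39, adjusted p = 0.112). For Ephx1, a microsomal epoxide hydrolase, the sign was negative (-0.83 ± 0.26, adjusted p = 0.137). In median deviation the high-fat tea mice ranged from -0.12 to 0.12 and the high-fat water mice from -0.69 to -0.48, without overlap. Chow tea mice (0.01 to 0.26) and chow water mice (-0.16 to 0.25) overlapped. The high-fat groups also stood apart for leptin and fat cell expansion, cell cycle, stress response and interferon-stimulated genes. Some members varied widely within a group, such as Sult1d1, a sulfotransferase that averaged 70.1 ± 156 CPM in high-fat tea mice. An SD so far above the mean of the group places nearly all of this signal in 1 mouse. The list median was 0.54 without the 3 libraries that carried pancreas, kidney or epididymis transcripts.

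Fatty acid oxidation genes had a median interaction of 0.58, with 32 of 33 positive. There were 0 calls with edgeR or voom, 7 positive members at an unadjusted p below 0.05 and 2 DESeq2 calls. For nuclear-encoded respiratory chain genes the median was 0.46, with 48 of 50 positive, 0 calls with edgeR, DESeq2 or voom, and 3 at an unadjusted p below 0.05. In both lists the mice of 1 group differed widely, and the median deviation for oxidation genes ran from -0.51 to 0.81 in high-fat tea mice, from -0.76 to -0.04 in high-fat water mice, from -0.21 to 0.39 in chow tea mice and from -0.48 to 0.79 in chow water mice. All 4 groups overlapped. Without the same 3 libraries the medians were 0.41 for oxidation genes and 0.37 for nuclear respiratory chain genes. With single libraries left out, the lowest medians were 0.35 for oxidation genes, without high-fat tea replicate 4, and 0.30 for nuclear respiratory chain genes, without chow water replicate 4. The part of muscle transcripts in these lists was not tested.

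Glucocorticoid response genes had a median of 0.63 with 20 of 23 positive and 0 called in edgeR or voom, with 5 positive at an unadjusted p below 0.05 and 1 DESeq2 call. The list was lowest among high-fat tea mice in replicate 4, at a median deviation of -1.18. Its median interaction was 0.67 without the 3 libraries with pancreas, kidney or epididymis transcripts. Fkbp5, a chaperone induced by glucocorticoids, averaged 188 CPM in high-fat tea mice and 77.2 CPM in high-fat water mice, and 252 CPM in chow tea mice and 280.3 CPM in chow water mice (1.44 ± 0.41, adjusted p = 0.127). Tea changed Fkbp5 by 1.29 in high-fat feeding (adjusted p = 0.0240) and the chow change was -0.15 (adjusted p = 0.895).

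**Figure D4:**
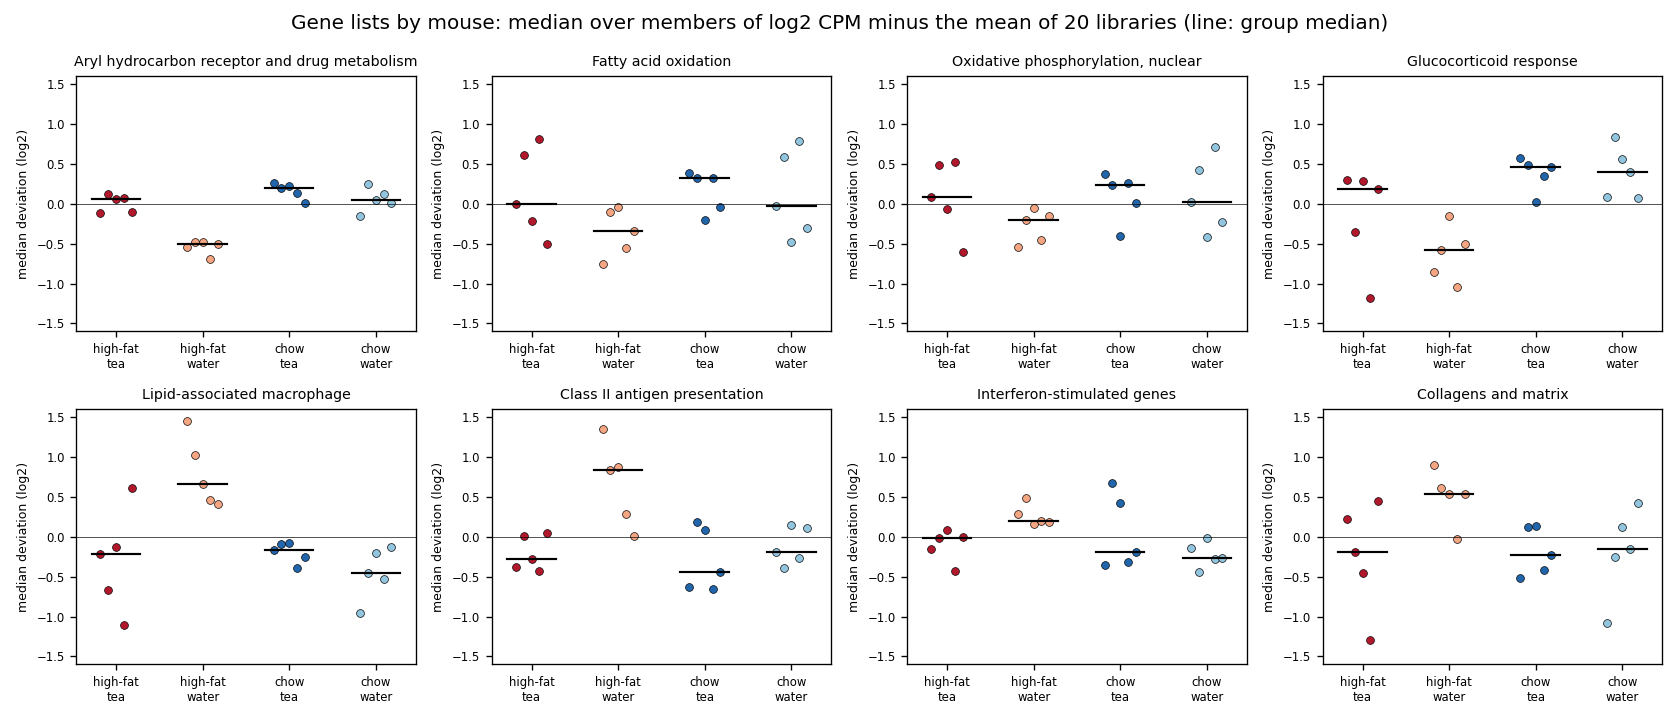
Level of 8 gene lists in each mouse (points), as the median over members of log2 CPM minus the mean of the 20 libraries, with the group median (line), in the order high-fat tea, high-fat water, chow tea and chow water. High-fat tea and high-fat water mice do not overlap for drug metabolism genes (-0.12 to 0.12 against -0.69 to -0.48). The same holds for interferon-stimulated genes (-0.43 to 0.08 against 0.16 to 0.49). For lipid-associated macrophage genes 1 high-fat tea mouse lies at 0.61 among high-fat water mice at 0.41 to 1.45.

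The number of called genes depended on single mice. With each library left out in turn it ranged from 3 to 111, with fewer calls in 17 of the 20 fits and more in 3. Without high-fat tea replicate 5, 111 genes were called (0.510% of those tested), 38 positive (0.174%) and 73 negative (0.335%), including all 14. Without chow water replicate 5 there were 24, and every library other than replicate 4 of the high-fat tea and of the high-fat water mice moved the count by more than 1.5 times when left out. Scd2, Septin9 and Rassf6 kept the call in all 20 of these fits and each of the other 11 genes lost it in 6 to 18 of them. Among these, 4732463B04Rik lost the call in 6 fits, Acot4 in 13, Vac14 in 15, Krt79 in 16, Sqor and Ivns1abp in 17 each and Rnase2a in 18. With limma voom Rassf6 was not called either, while Scd2 and Septin9 were. The direction of each of the 14 estimates was the same in every fit that tested it. Without the 3 libraries with pancreas, kidney or epididymis transcripts, 44 genes were called (0.206%), 28 positive (0.131%) and 16 negative (0.0747%), 12 of the 14 among them. Without the 9 libraries with other-organ transcripts, 11 remained, 2 of them high-fat tea and 2 high-fat water. High-fat tea replicate 2, with the adrenal cortex transcripts described above, was among the 11. In that fit 0 genes were called with edgeR, with a lowest adjusted p of 0.163 and 2260 genes at an unadjusted p below 0.05.

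**Figure D5:**
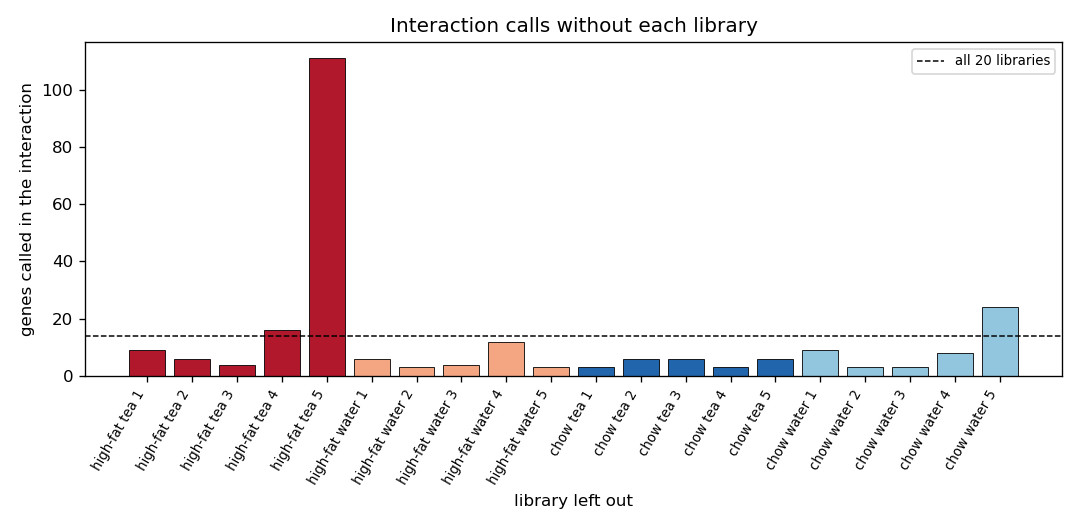
Number of genes called in the interaction (bars) when the library named on the horizontal axis is left out, in the order high-fat tea, high-fat water, chow tea and chow water, with the count from all 20 libraries as a dashed line at 14. Leaving out high-fat tea replicate 5 gives 111 calls and chow water replicate 5 gives 24, while 17 libraries give fewer than 14.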

How the data were processed

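RNA of 20 white fat samples was extracted with TRIzol and prepared with a stranded poly-A kit, per the labels' protocols. The submitters' processing notes name fastp 0.23.2, HISAT2 2.2.1 and featureCounts 2.0.6. The authors deposited raw counts of reads per gene, not normalized, counted on the GENCODE vM32 annotation of GRCm39 per the file headers, although the processing notes name mm10. Per the file headers no strand option and no pair-counting option was set, so reads on opposite strands cannot be told apart and most fragments count as both reads. From the deposited counts, edgeR 4.0.16 (R 4.3.3) removed genes with low counts (filterByExpr, at least 10 counts in 5 libraries and 15 over all), 35499 in number, and 21306 were tested. TMM scaled the library sizes, and a group-means model was fitted to all 20 libraries with the quasi-likelihood F test. A gene was called at a Benjamini-Hochberg adjusted p below 0.05. Levels are CPM on the scaled size, and errors of log2 changes are standard errors (SE). The mice are separate animals per the design text, and p-values cover the spread between them. At 53047057 reads or more per library, counting error is largest for genes at low levels, such as Rnase2a. No pair of libraries within a group agreed within sampling noise (lowest chi-square per gene 61.6 over 40 pairs). Alternatives were limma voom (limma 3.58.1), DESeq2 1.42.0 and its size factors, other filters, a replicate block and libraries left out. The steps were tested on simulated data. Named genes are up to 10 called genes of each direction with the lowest p and further conditions on level, name and stability, up to 3 members of any list with at least 2 calls, and 14 fixed genes. Fewer than 5 positive genes met the conditions, so the 5 with the lowest p were taken. Values of 1 called gene are not reported here, and it stays in all counts of genes. The members, lists and tests were chosen with earlier results of these data known.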

Additional observations from a re-analysis of the deposited data

Results flagged for a closer look

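The 14 called genes are those whose tea change differed between the diets by the test of the difference itself. The log2 interactions of 13 of them were -2.95 for Scd2, -1.21 for Septin9, -1.73 for Dbp, -0.99 for Ano8, -1.06 for Vac14, -2.69 for Krt79 and -3.95 for Rnase2a, and 3.52 for Rassf6, 2.93 for 4732463B04Rik, 3.02 for Eif4ebp3, 2.36 for Acot4, 0.95 for Sqor and 1.41 for Ivns1abp.

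Single mice stood far from the others of their group in 9 of 104 sets of 5 values tested, by Dixon's criterion. In independent, normally distributed values it marks about 1 in 20. The values here were CPM without a log and the sets share the same 20 mice, so the count cannot be set against that rate. Lep was at 943 CPM in high-fat tea replicate 5, with the other 4 mice at 5.06 to 165 CPM, and at 170.3 CPM in chow water replicate 5, with the others at 5.38 to 50.1 CPM. Fasn reached 3529 CPM in high-fat tea replicate 2 (others 134 to 760.0 CPM) and 9745 CPM in chow water replicate 4 (others 911 to 3209 CPM). Pparg was at 59.9 CPM in high-fat tea replicate 4, the high-fat tea library with kidney transcripts (others 229 to 283 CPM). Trem2 was at 101 CPM in high-fat water replicate 1 (others 24.5 to 41.6 CPM). Cyp2e1 was at 10032 CPM in high-fat tea replicate 3 (others 2566 to 4646 CPM). Of the called genes, 4732463B04Rik stood at 5.12 CPM in high-fat tea replicate 4 (others 2.16 to 2.97 CPM) and Eif4ebp3 at 3.26 CPM in high-fat tea replicate 3 (others 1.97 to 2.25 CPM).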

How the results depend on the processing

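Interaction calls numbered 14 with all libraries and 14 with DESeq2's size factors. DESeq2 called 691 (476 positive, 215 negative), limma voom 6 (2 and 4), no filter on low counts 4 (2 and 2), and the stricter filter 19. Without the 3 libraries there were 44 (28 and 16) and without 9 there were 0 in either direction. The counts with 1 library left out ranged from 3 to 111 (1 to 38 positive, 2 to 73 negative). Tea in high-fat feeding gave 928 calls, and 2431 with DESeq2, 408 without a filter, 1602 without 3 libraries, 13 without 9 and 212 to 2017 with 1 left out. Tea in chow gave 5, and 261 with DESeq2, 2 without a filter, 9 without 3 libraries, 0 without 9 and 2 to 6 with 1 left out. The causes were not tested.

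With the replicate number as a block the interaction had 14 calls (9 of them among the original 14), tea in high-fat feeding 632 and tea in chow 2, and Nr1d1 was called in the interaction (-1.37, adjusted p = 0.0232). Deviations from the group means had a median correlation of 0.01 over 30 pairs of same-numbered libraries (-0.27 to 0.47). The median was -0.03 over 120 pairs with another number, and 4 of 20 libraries matched best with their own number. No pairing by number was seen. The check cannot settle whether one exists, since the deviations also hold other-organ transcripts of single libraries.

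None of the 14 called genes reversed in any fit. Among uncalled genes, Lep turned to -0.85 with voom, -1.17 with the block, -0.53 without chow water replicate 5 and -1.22 without high-fat tea replicate 5 (-1.22 to 1.06 over all left-out libraries). Pparg turned to -0.08 with voom. Fasn turned to 0.05 without 3 libraries and 0.80 without 9, where Adipoq was at 0.01 and Npas2 at -0.17. Counts were low for Rnase2a (4 to 24 reads in high-fat tea libraries, 93 to 183 in high-fat water libraries) and, in high-fat water libraries, for Eif4ebp3 (16 to 40). What limits each gene's precision was not tested.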
